A study of Mus musculus with 6 samples.

Results

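Immediate early genes are transcribed within minutes of a neuron firing, before any new protein is made, and their messages are used as a record of recent activity. Here 10 such genes were followed across 6 single-colour arrays of mouse hypothalamus: the transcription factors Fos, Fosb, Junb, Egr1, Egr2, Egr4, Npas4 and Nr4a1, the synaptic effector Arc, and Ier5, a nuclear protein of the early response. They were chosen by name with earlier results of these data known, so shares of them set beside those of all genes are descriptive. Their probes are those whose transcript accession belongs to these genes. This gave 11 of 39429 probes, 1 per gene except for 2 of Ier5, and 10 of 22862 tested genes. All 11 probes were well above background on all 6 arrays.

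The mice were C57BL/6J males at 16 weeks of age, and total hypothalamic RNA was hybridised on 2 arrays per genotype. Trsp-RIPKO mice were TrspFlox/Flox::RIP-Cre, Trsp-Ins1KO mice were TrspFlox/Flox::Ins1-Cre, and TrspFF mice had the TrspFlox/Flox alleles that all 3 groups share, with no Cre named. Trsp encodes the transfer RNA that inserts selenocysteine into selenoproteins. In RIP-Cre a rat insulin promoter drives Cre, which is known to act in pancreatic beta cells and in part of the hypothalamus, and in Ins1-Cre the Ins1 locus drives it, with beta cells as its main site. No group carried Cre without floxed Trsp, so effects of Cre and of Trsp loss cannot be told apart, and 0 of 49997 entries of the gene table were Trsp, so whether the gene was deleted could not be checked. The labels do not say whether the 2 arrays of a genotype came from separate animals, and a p-value here reflects only how far the arrays of a genotype differ, which may be technical.

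Calcium that enters a firing neuron activates kinases, which phosphorylate CREB and the partners of serum response factor already bound at these promoters. Fos, Fosb and Junb proteins pair into the AP-1 complex, the Egr proteins are zinc finger factors, Npas4 is a basic helix-loop-helix factor that responds to calcium influx, and Nr4a1 is an orphan nuclear receptor. Arc protein acts at synapses, where it promotes removal of AMPA receptors. In hypothalamus, Fos is used to mark neurons that respond to feeding, hormones or stress, and all of these messages are short-lived.

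The promoters are shown because CREB binds at a short core sequence, TGACG, that recurs across them. Read from the other strand, this core is spelled CGTCA. Windows of 250 bases before the annotated start were taken from RefSeq on build GRCm38.p6, and 8 of the 10 genes were matched; Arc and Egr1 were not. The core was present in 7 of these 8 genes (Fos, Fosb, Junb, Egr2, Egr4, Npas4 and Nr4a1), against 17.8% of all 32851 promoter windows of that length. The following 6 windows read from upstream to the start of the gene on its own strand, and capitals mark the core on either strand. They lie at chr12:85473640-85473889 on the plus strand (Fos), chr7:19310046-19310295 minus (Fosb), chr10:67537619-67537868 plus (Egr2), chr6:85513590-85513839 minus (Egr4), chr19:4989972-4990221 minus (Npas4) and chr15:101266596-101266845 plus (Nr4a1).
Fos: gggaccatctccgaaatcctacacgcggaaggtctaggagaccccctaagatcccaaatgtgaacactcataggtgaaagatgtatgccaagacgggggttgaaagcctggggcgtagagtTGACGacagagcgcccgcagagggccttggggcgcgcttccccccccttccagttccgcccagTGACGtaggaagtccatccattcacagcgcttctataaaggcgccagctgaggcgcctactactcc
Fosb: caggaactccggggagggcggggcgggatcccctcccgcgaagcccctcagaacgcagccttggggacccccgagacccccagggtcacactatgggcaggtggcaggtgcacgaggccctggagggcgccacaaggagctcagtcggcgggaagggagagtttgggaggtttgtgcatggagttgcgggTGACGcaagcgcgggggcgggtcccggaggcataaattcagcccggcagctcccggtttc
Egr2: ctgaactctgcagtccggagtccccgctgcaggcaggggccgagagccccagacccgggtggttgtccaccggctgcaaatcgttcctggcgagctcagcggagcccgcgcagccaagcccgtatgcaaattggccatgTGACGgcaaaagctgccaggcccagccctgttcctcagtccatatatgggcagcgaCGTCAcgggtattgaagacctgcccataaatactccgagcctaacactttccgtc
Egr4: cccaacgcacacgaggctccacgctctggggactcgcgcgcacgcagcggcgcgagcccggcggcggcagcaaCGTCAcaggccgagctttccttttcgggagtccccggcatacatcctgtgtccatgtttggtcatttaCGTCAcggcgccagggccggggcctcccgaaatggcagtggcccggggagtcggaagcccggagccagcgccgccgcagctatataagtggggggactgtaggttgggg
Npas4: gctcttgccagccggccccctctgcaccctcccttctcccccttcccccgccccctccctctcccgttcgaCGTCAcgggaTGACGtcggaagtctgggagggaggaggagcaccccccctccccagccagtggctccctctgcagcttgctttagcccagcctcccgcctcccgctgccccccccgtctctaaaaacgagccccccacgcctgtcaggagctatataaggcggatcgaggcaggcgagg
Nr4a1: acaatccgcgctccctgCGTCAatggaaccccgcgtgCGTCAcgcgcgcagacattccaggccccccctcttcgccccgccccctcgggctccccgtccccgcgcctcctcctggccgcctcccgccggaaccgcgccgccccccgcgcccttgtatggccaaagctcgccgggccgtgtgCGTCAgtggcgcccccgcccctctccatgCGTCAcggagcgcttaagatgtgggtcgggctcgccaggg

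Counted from the start of the gene, the cores of Fos begin 129 and 66 bases upstream and the only one of Fosb 60 bases upstream. Those of Egr2 begin 111 and 55 bases upstream, of Egr4 177 and 109, and of Npas4 179 and 169. Nr4a1 had the most, 4, at 233, 213, 69 and 40 bases. The full palindrome TGACGTCA, which contains the core on both strands, was in 0 of the 8 genes and in 1.55% of all windows. A serum response element was found in Egr2 only, 72 bases upstream in the window shown, against 1.47% of all windows, and TATAA on either strand in 5 genes (Fos, Egr2, Egr4, Npas4 and Ier5), against 22.8%. Egr2 has 5 annotated windows, some overlapping, and counts as holding a motif when any of them does. These matches describe the letters in the window and were not tested as binding sites.

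Levels are log2 of the processed signal minus the log2 of the 75th percentile of that signal on the same array, so that 0 is the 75th percentile of an array, and each gene is compared only with itself across arrays. That percentile lay between 1391 and 2137 signal units, the share of probes well above background was 68.9% to 72.0% per array, and saturation was seen for 0 probes. The labels of the knockouts are swapped when the deposited value table is set against the scanner files: 4 of 6 table columns match the scanner files of the other knockout (lowest r over probes 0.99997), and against those of their own label r is -0.22 to -0.20. Names here follow the scanner files, and under the table's names each knockout result belongs to the other knockout and every difference between the knockouts changes sign. Both TrspFF arrays share a slide and a scan and all 4 knockout arrays share another, so genotype and slide cannot be told apart in the comparisons with TrspFF, while Trsp-RIPKO and Trsp-Ins1KO arrays lie on the same slide.

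Trsp-Ins1KO replicate 2 stands apart in markers of cortical and hippocampal excitatory neurons and of choroid plexus, but not in those of every region near the hypothalamus. The 8 markers of cortical and hippocampal excitatory neurons averaged -1.20 and -1.11 in Trsp-RIPKO, -2.12 and -4.27 in Trsp-Ins1KO, and -2.36 and -1.49 in TrspFF, and 7 of the 8 were lowest on Trsp-Ins1KO replicate 2. Neurod6, a transcription factor of those neurons, had a level of -5.24 on that array and between -1.13 and -0.43 on the others, while Emx1 was below the background call on 1 array. Choroid plexus markers (8 genes) averaged -2.15 on the same array and between 0.53 and 1.42 on the others. Thalamic markers (5 genes) were not reduced there, with an average of 1.03 on that array and between 0.62 and 0.88 on the others. Striatal markers averaged -1.56 on that array, near the -1.63 of Trsp-Ins1KO replicate 1. Fewer cells of a type and less RNA per cell cannot be told apart in such tissue samples. In contrast, 7 pan-neuronal markers averaged between 3.50 and 3.72 on all 6 arrays. Single markers among them were less even. Elavl4 had levels of -0.12 and -0.41 in Trsp-RIPKO, 0.04 and 0.02 in Trsp-Ins1KO, and 0.44 and 0.26 in TrspFF. Map2 lay between 2.35 on TrspFF replicate 2 and 3.41 on Trsp-Ins1KO replicate 1. Of the hypothalamic neuron markers, 12 of 15 were well above background on every array (Otp and Ghrh were not tested and Sim1 did not reach this on all arrays). The 13 tested ones averaged 0.79 and 0.68 in Trsp-RIPKO, 1.18 and 1.17 in Trsp-Ins1KO, and 0.79 and 0.58 in TrspFF. For this reason, differences of the 10 genes on the tested probes that use Trsp-Ins1KO replicate 2 are also given without it where they moved.

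Against TrspFF, all 10 immediate early genes had a higher mean in Trsp-RIPKO hypothalamus (48.1% of all 22862 tested genes did), whereas Trsp-Ins1KO hypothalamus had a higher mean for 4 (53.1% of all genes) and a lower mean for 6. None of these differences passed the test across all genes: 0 of 10 had an adjusted p under 0.05 (limma with Benjamini-Hochberg adjustment) in each of the 3 comparisons. Of all genes, 1.66% passed in Trsp-RIPKO against TrspFF (0.0962% higher and 1.56% lower), 1.82% in Trsp-Ins1KO against TrspFF (as higher 0.241%, as lower 1.58%), and 0.0175% in Trsp-RIPKO against Trsp-Ins1KO (0.00% higher and 0.0175% lower). At an unadjusted p under 0.05, Fosb and Npas4 were higher in Trsp-RIPKO than in TrspFF (2 of 10, with 9.71% of all genes higher at that level). Fos and Fosb were higher in Trsp-Ins1KO than in TrspFF (2 of 10, against 13.3%) and Ier5 was lower (1 of 10, against 12.6%). Between the knockouts, Egr4 and Ier5 were higher in Trsp-RIPKO (2 of 10, against 7.62%). In either direction, an unadjusted p under 0.05 was reached by 23.9% of all genes in Trsp-RIPKO against TrspFF, 26.0% in Trsp-Ins1KO against TrspFF and 18.4% in Trsp-RIPKO against Trsp-Ins1KO.

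**Figure D1:**
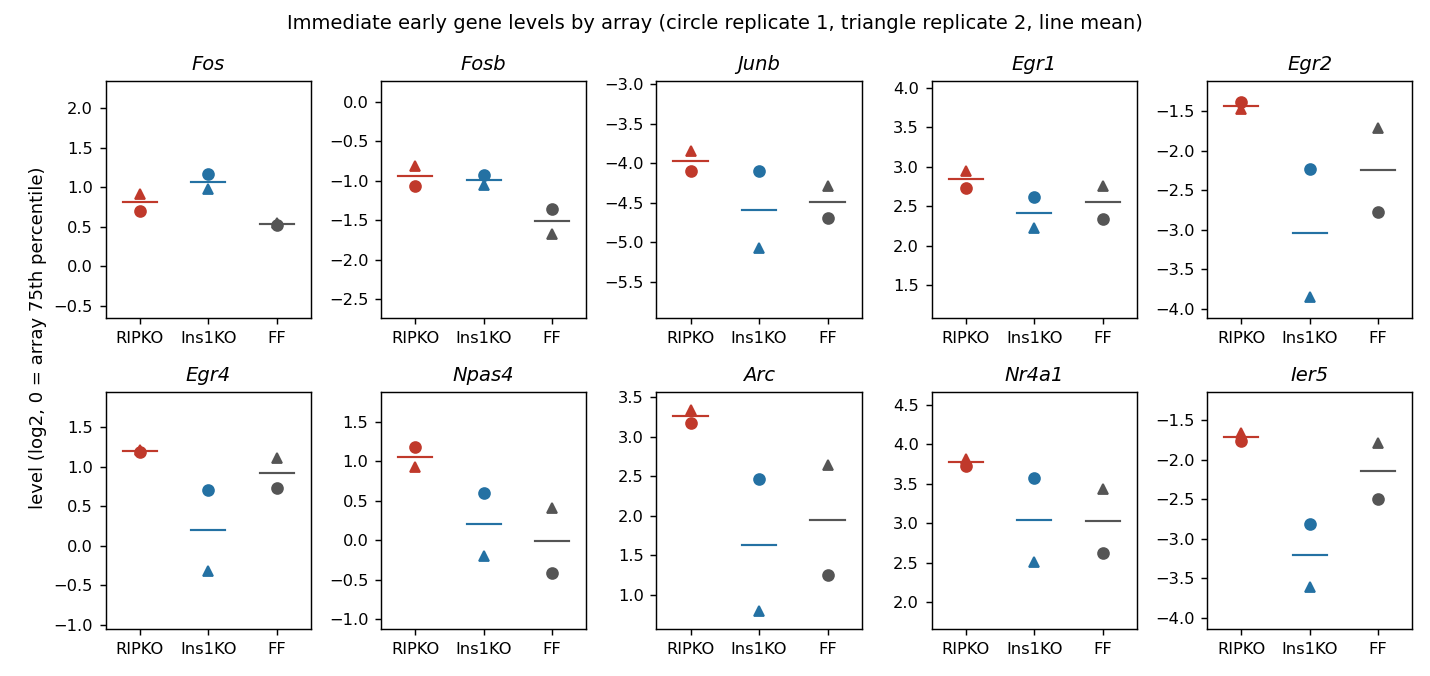
Level of each gene (vertical axis, log2, where 0 is the 75th percentile of the array) on the 2 arrays each of Trsp-RIPKO (RIPKO, red), Trsp-Ins1KO (Ins1KO, blue) and TrspFF (FF, grey). Circles are replicate 1, triangles replicate 2 and lines the mean of the 2 arrays; the axes start at different values but each spans at least 3 log2 units. The Trsp-RIPKO arrays lie close together in most panels, Fos and Fosb are higher on all 4 knockout arrays than on both TrspFF arrays, and Egr2, Arc and Ier5 are lowest on Trsp-Ins1KO replicate 2.

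Of the AP-1 genes, Fos and Fosb were higher in both knockouts. Fos, on chromosome 12, had levels of 0.70 and 0.92 in Trsp-RIPKO, 1.17 and 0.97 in Trsp-Ins1KO, and 0.52 and 0.55 in TrspFF. Every knockout array lay above every TrspFF array, and the Trsp-Ins1KO arrays lay above the Trsp-RIPKO arrays. The margin between the knockouts was narrow, with 0.97 on Trsp-Ins1KO replicate 2 beside 0.92 on Trsp-RIPKO replicate 2. The share of all genes with every knockout array above every TrspFF array was not counted. Taken singly, Trsp-RIPKO lay above TrspFF without overlap for 28.0% of all genes, and Trsp-Ins1KO for 31.7%. Knockout against TrspFF is also the split by slide, and both limits hold for the genes below with this pattern. Fos differed from TrspFF by 0.54 in Trsp-Ins1KO (SE 0.12, n = 2 per group, adjusted p = 0.0935, limma). In Trsp-RIPKO it differed by 0.27 (SE 0.12, adjusted p = 0.25, limma). Without Trsp-Ins1KO replicate 2, Fos differed from TrspFF by 0.63. With limma's trend and robust options Fos passed the threshold in Trsp-Ins1KO against TrspFF, at an adjusted p of 0.0496, where 563 genes passed as higher in place of 55 and 677 as lower in place of 361. Its adjusted p in that comparison lay between 0.0496 and 0.232 over all settings tried. Between the knockouts, Fos differed by -0.26 (SE 0.12, adjusted p = 0.301).

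The array carries 10 spots of the Fos probe, which gives its level more support within an array than that of the other genes. The SD over these spots was 0.029 to 0.055 log2, or a coefficient of variation of 1.99% to 3.83% of the signal. Spots ranged between 0.64 and 0.80 and between 0.87 and 1.02 on the Trsp-RIPKO arrays, between 1.06 and 1.24 and between 0.90 and 1.06 on the Trsp-Ins1KO arrays, and between 0.47 and 0.55 and between 0.45 and 0.60 on the TrspFF arrays. Every spot of a knockout array therefore lay above every spot of a TrspFF array. The replicate arrays of a knockout differed by more than the spots within an array did, and spots are not replicates of a genotype.

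**Figure D2:**
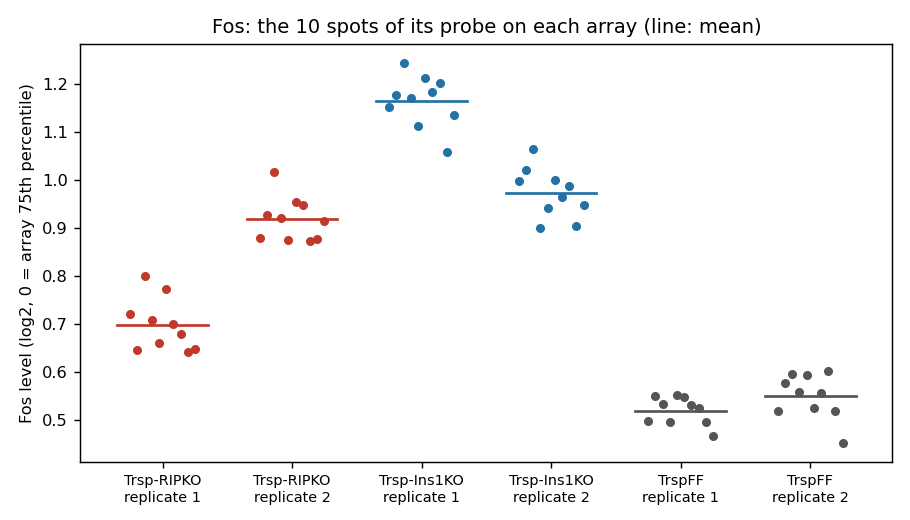
Level of Fos (vertical axis, log2, where 0 is the 75th percentile of the array) at each of the 10 spots of its probe on the Trsp-RIPKO (red), Trsp-Ins1KO (blue) and TrspFF (grey) arrays, with a line at the mean of the spots. Spots of an array scatter by an SD of at most 0.055, and those of the 4 knockout arrays, from 0.64 upward, lie above those of the TrspFF arrays, which reach 0.60.

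Fosb, on chromosome 7, encodes a Fos relative whose truncated form is known to build up under repeated stimulation. Its levels were -1.07 and -0.81 in Trsp-RIPKO, -0.93 and -1.05 in Trsp-Ins1KO, and -1.35 and -1.67 in TrspFF. The 4 knockout arrays overlapped each other and lay above both TrspFF arrays. Fosb differed from TrspFF by 0.57 in Trsp-RIPKO (SE 0.16, adjusted p = 0.133, limma) and by 0.52 in Trsp-Ins1KO (SE 0.16, adjusted p = 0.133), and by 0.05 between the knockouts (SE 0.16, adjusted p = 0.877). Without Trsp-Ins1KO replicate 2 the Trsp-Ins1KO value was 0.59.

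Junb, on chromosome 8, encodes a Jun protein that is a partner of Fos, and its probe was faint, with a processed signal between 53.8 and 149 and an error of up to 14.2% of the signal by the scanner software's model. Its levels were -4.10 and -3.85 in Trsp-RIPKO, -4.10 and -5.08 in Trsp-Ins1KO, and -4.69 and -4.29 in TrspFF. Both Trsp-RIPKO arrays lay above both TrspFF arrays, whereas the Trsp-Ins1KO arrays lay on either side of them. Junb differed from TrspFF by 0.52 in Trsp-RIPKO (SE 0.35, adjusted p = 0.411, limma) and by -0.10 in Trsp-Ins1KO (adjusted p = 0.878). The Trsp-Ins1KO value was 0.39 without Trsp-Ins1KO replicate 2 and 0.02 with quantile normalization, so it has no settled sign. Between the knockouts Junb differed by 0.62 (SE 0.35, adjusted p = 0.367, limma), or by 0.13 without Trsp-Ins1KO replicate 2. Trsp-RIPKO replicate 1 (-4.096) barely exceeded Trsp-Ins1KO replicate 1 (-4.104), on a probe with the error given above.

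The 3 Egr genes had their highest level on a Trsp-RIPKO array, as had 9 of the 10 genes and 26.2% of all genes, and their lowest on Trsp-Ins1KO replicate 2. Egr2, a zinc finger factor also known from myelinating glia of peripheral nerve, lies on chromosome 10 and had levels of -1.39 and -1.48 in Trsp-RIPKO, -2.24 and -3.85 in Trsp-Ins1KO, and -2.78 and -1.72 in TrspFF. The Trsp-RIPKO arrays lay close together and above all others, while the replicates of the other genotypes lay far apart. Egr2 differed by 1.61 between Trsp-RIPKO and Trsp-Ins1KO (SE 0.62, adjusted p = 0.271, limma) and by 0.80 without Trsp-Ins1KO replicate 2. Against TrspFF it differed by 0.82 in Trsp-RIPKO (SE 0.62, adjusted p = 0.458), or by 0.29 without TrspFF replicate 1, and by -0.79 in Trsp-Ins1KO (SE 0.62, adjusted p = 0.452), which became 0.01 without Trsp-Ins1KO replicate 2.

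Egr4, on chromosome 6, had levels of 1.19 and 1.21 in Trsp-RIPKO, 0.71 and -0.32 in Trsp-Ins1KO, and 0.73 and 1.11 in TrspFF. On the tested probes it was the only gene besides Ier5 in which both Trsp-Ins1KO arrays lay below both TrspFF arrays. The margin was narrow, with 0.71 on Trsp-Ins1KO replicate 1 beside 0.73 on TrspFF replicate 1. The difference between Trsp-RIPKO and Trsp-Ins1KO was 1.01 (SE 0.36, adjusted p = 0.264, limma) and 0.50 without Trsp-Ins1KO replicate 2. Against TrspFF, Egr4 differed by 0.28 in Trsp-RIPKO (SE 0.36, adjusted p = 0.655) and by -0.73 in Trsp-Ins1KO (SE 0.36, adjusted p = 0.267), or -0.22 without Trsp-Ins1KO replicate 2.

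Egr1, on chromosome 18, is a widely used marker of neuronal activity and varied least among the 3 across arrays. Its levels were 2.73 and 2.95 in Trsp-RIPKO, 2.62 and 2.22 in Trsp-Ins1KO, and 2.34 and 2.76 in TrspFF. It was the one member for which Trsp-RIPKO and TrspFF arrays overlapped on the tested probe. Egr1 differed from TrspFF by 0.29 in Trsp-RIPKO (SE 0.21, adjusted p = 0.436, limma) and by -0.13 in Trsp-Ins1KO (adjusted p = 0.719), and by 0.42 between the knockouts (SE 0.21, adjusted p = 0.325). Without Trsp-Ins1KO replicate 2 the Trsp-Ins1KO value was 0.07, so its sign is not settled, and the knockouts differed by 0.22.

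Npas4, on chromosome 19, is induced in neurons by calcium influx and drives genes of inhibitory synapses. Its levels were 1.17 and 0.92 in Trsp-RIPKO, 0.60 and -0.20 in Trsp-Ins1KO, and -0.42 and 0.41 in TrspFF. Both Trsp-RIPKO arrays lay above the 4 others, and Trsp-Ins1KO overlapped TrspFF. The difference of Trsp-RIPKO from TrspFF was 1.05 (SE 0.38, adjusted p = 0.194, limma) and that of Trsp-RIPKO from Trsp-Ins1KO was 0.84 (SE 0.38, adjusted p = 0.297), or 0.45 without Trsp-Ins1KO replicate 2. Trsp-Ins1KO differed from TrspFF by 0.21 (adjusted p = 0.751), or 0.61 without that array.

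Arc, on chromosome 15, spread most over the arrays, with levels of 3.18 and 3.35 in Trsp-RIPKO, 2.47 and 0.80 in Trsp-Ins1KO, and 1.26 and 2.64 in TrspFF. Its Trsp-RIPKO arrays lay above all others, but the 2 arrays of Trsp-Ins1KO lay far apart, as did those of TrspFF. Arc differed from TrspFF by 1.31 in Trsp-RIPKO (SE 0.70, adjusted p = 0.319, limma), and this was 0.62 without TrspFF replicate 1 and 2.00 without TrspFF replicate 2. The difference of Trsp-Ins1KO from TrspFF was -0.32 (adjusted p = 0.796) and turned to 0.52 without Trsp-Ins1KO replicate 2. Trsp-RIPKO and Trsp-Ins1KO differed by 1.63 (SE 0.70, adjusted p = 0.285), or by 0.79 without that array.

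Nr4a1, also on chromosome 15, had levels of 3.72 and 3.82 in Trsp-RIPKO, 3.58 and 2.51 in Trsp-Ins1KO, and 2.62 and 3.44 in TrspFF. Trsp-RIPKO arrays were again the highest, and Trsp-Ins1KO and TrspFF covered nearly the same range. Nr4a1 differed from TrspFF by 0.74 in Trsp-RIPKO (SE 0.44, adjusted p = 0.357, limma) and by 0.01 in Trsp-Ins1KO (adjusted p = 0.986). The Trsp-Ins1KO value was 0.55 without Trsp-Ins1KO replicate 2 and -0.08 with quantile normalization or normexp background correction. Trsp-RIPKO and Trsp-Ins1KO differed by 0.73 (SE 0.44, adjusted p = 0.386, limma), or by 0.19 without Trsp-Ins1KO replicate 2.

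Ier5, on chromosome 1, was measured by 2 probes. On the brighter one, which was used in the test, its levels were -1.76 and -1.67 in Trsp-RIPKO, -2.81 and -3.61 in Trsp-Ins1KO, and -2.50 and -1.79 in TrspFF. On the other they were -2.87 and -2.48 in Trsp-RIPKO, -3.11 and -3.87 in Trsp-Ins1KO, and -3.42 and -2.79 in TrspFF. Both probes were lowest on Trsp-Ins1KO replicate 2, but the probes disagree on Trsp-Ins1KO replicate 1, which lay below both TrspFF arrays on the tested probe and between them on the other. They also disagree on Trsp-RIPKO replicate 1. On the tested probe it lay just above both TrspFF arrays (-1.76 beside -1.79 for TrspFF replicate 2), and on the other it lay between them. The difference between Trsp-RIPKO and Trsp-Ins1KO was 1.50 on the tested probe (SE 0.35, adjusted p = 0.263, limma), or 1.09 without Trsp-Ins1KO replicate 2, and 0.81 on the other probe. Against TrspFF, Ier5 differed by 0.43 in Trsp-RIPKO (SE 0.35, adjusted p = 0.488) and by -1.07 in Trsp-Ins1KO (SE 0.35, adjusted p = 0.154), with -0.38 for Trsp-Ins1KO on the other probe. On the tested probe the Trsp-Ins1KO value was -0.67 without Trsp-Ins1KO replicate 2.

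**Figure D3:**
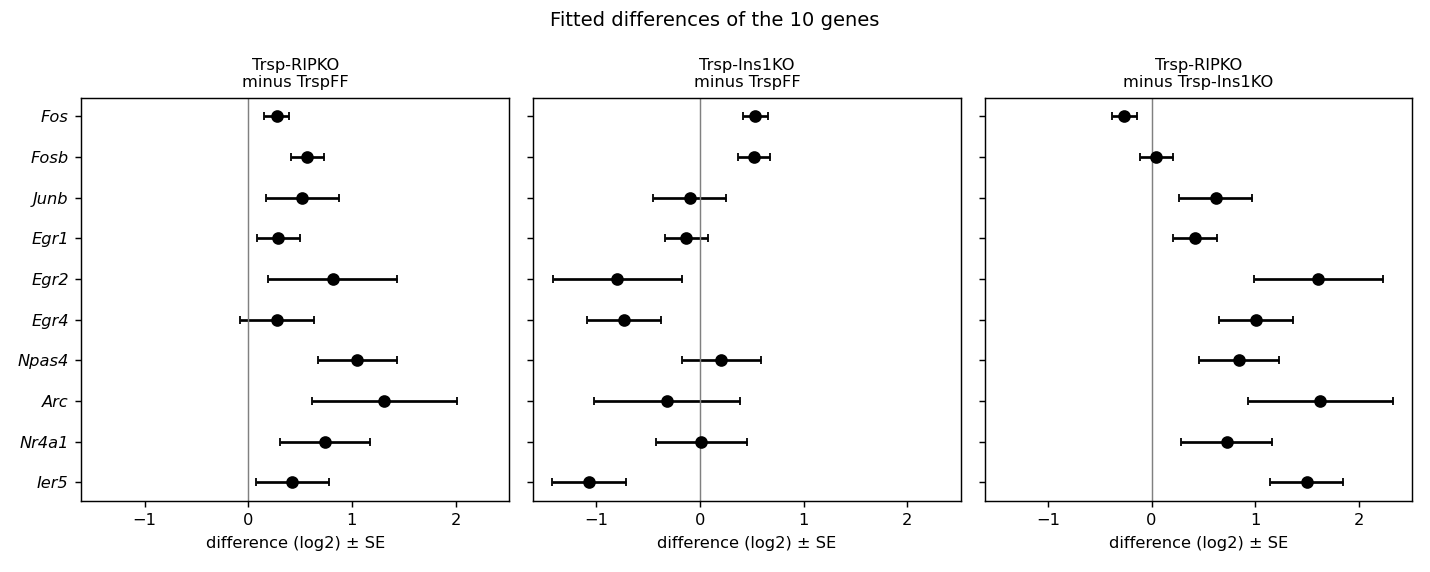
Fitted difference of each gene (horizontal axis, log2, point with a bar of 1 moderated SE on each side, 2 arrays per group) for Trsp-RIPKO minus TrspFF, Trsp-Ins1KO minus TrspFF and Trsp-RIPKO minus Trsp-Ins1KO. All 10 points of Trsp-RIPKO minus TrspFF lie above 0, from 0.27 to 1.31, those of Trsp-Ins1KO minus TrspFF lie between -1.07 and 0.54, and none passed the adjusted threshold.

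Over the 10 genes, the median difference of Trsp-RIPKO from TrspFF was 0.55, with a range of 0.27 to 1.31, beside a median of -0.01 over all tested genes. On the tested probes, the 2 Trsp-RIPKO arrays lay above the 2 TrspFF arrays for 9 of the 10, all but Egr1, and 28.0% of all genes did so. They lay below for 0 of the 10 and for 30.2% of all genes. The median was 0.30 without TrspFF replicate 1 and 0.75 without TrspFF replicate 2, with all 10 genes above 0 in each case. The size of most single differences rested on the TrspFF arrays: without TrspFF replicate 1 they were 0.29 for Egr2, 0.090 for Egr4, 0.084 for Egr1, 0.64 for Npas4, 0.33 for Nr4a1, 0.32 for Junb and 0.073 for Ier5. Without TrspFF replicate 2 the same genes differed by 1.35 (Egr2), 0.47 (Egr4), 0.50 (Egr1), 1.46 (Npas4), 1.15 (Nr4a1), 0.72 (Junb) and 0.78 (Ier5). TrspFF replicate 1 was the lower of the 2 control arrays for 9 of the genes, Fosb being the other. The share of all genes was not counted for this, nor for the counts with an array left out here and below.

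For Trsp-Ins1KO against the same TrspFF arrays, the median over the 10 genes was -0.11, beside 0.02 over all genes, with a range of -1.07 to 0.54. Groups did not overlap for Fos and Fosb, which were higher in Trsp-Ins1KO (31.7% of all genes were so), and for Egr4 and Ier5, which were lower (26.4%). Egr4 is among these by the narrow margin given above, and Ier5 on the tested probe only. The sign of the median rested on the replicate: it was 0.45, with 8 of 10 genes above 0, without Trsp-Ins1KO replicate 2, and -0.55, with 2 of 10 above 0, without Trsp-Ins1KO replicate 1. Both comparisons with TrspFF share their control arrays, so their values are not independent.

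Between the knockouts, which share a slide, the median difference of Trsp-RIPKO from Trsp-Ins1KO was 0.79, beside -0.05 over all genes, with a range of -0.26 to 1.63. For 8 genes both Trsp-RIPKO arrays lay above both Trsp-Ins1KO arrays (22.9% of all genes), for Fos both lay below (35.8%), and for Fosb the groups overlapped. Junb is among the 8 only by the narrow margin given above, and that of Fos was narrow too. The mean was higher in Trsp-RIPKO for 9 of the 10 and for 42.1% of all genes. Without Trsp-Ins1KO replicate 2 the median was 0.33, and without Trsp-Ins1KO replicate 1 it was 1.25. Trsp-RIPKO was still above Trsp-Ins1KO in 8 of 10 genes without replicate 2, with Fos at -0.36 and Fosb at -0.01.

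The 10 genes did not share a single profile over the arrays. Fos and Fosb, each centred on its own mean over the 6 arrays, averaged -0.02 and 0.23 in Trsp-RIPKO, 0.29 and 0.13 in Trsp-Ins1KO, and -0.25 and -0.39 in TrspFF, so that TrspFF was lowest. The other 8 genes averaged 0.54 and 0.61 in Trsp-RIPKO, 0.05 and -0.99 in Trsp-Ins1KO, and -0.48 and 0.27 in TrspFF. In 7 of the 10 genes the lowest level was on Trsp-Ins1KO replicate 2 (15.7% of all genes), and in 7, all but Fos, Fosb and Egr1, both highest levels were on the Trsp-RIPKO arrays (11.4% of all genes). For Ier5 the latter holds on the tested probe only. Fos and Npas4 were lowest on TrspFF replicate 1 (18.1%) and Fosb on TrspFF replicate 2 (19.4%).

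The markers of cortical and hippocampal excitatory neurons had the same order of the 6 arrays as the mean of the 10 genes. From high to low this was Trsp-RIPKO replicates 2 and 1, TrspFF replicate 2, Trsp-Ins1KO replicate 1, TrspFF replicate 1 and Trsp-Ins1KO replicate 2. This order was not particular to those markers. The mean of the other activity-induced transcripts described below had it too, from -0.50 down to -0.92. So had the mean of the regulators that restrain the early response, from -1.13 down to -1.51. Among the 10, only Arc had exactly this order, as did 160 of all tested genes (0.700%). Slc17a7, the vesicular glutamate transporter of those neurons, had levels of -0.03 and 0.02 in Trsp-RIPKO, -1.17 and -1.77 in Trsp-Ins1KO, and -0.88 and -0.34 in TrspFF. The median difference over the 8 markers was 0.63 in Trsp-RIPKO against TrspFF, -1.16 in Trsp-Ins1KO against TrspFF and 2.27 in Trsp-RIPKO against Trsp-Ins1KO. Of the 8, 0 passed the adjusted threshold in any of these. In that order, 0, 2 and 3 had an unadjusted p under 0.05 (limma), beside 23.9%, 26.0% and 18.4% of all genes. Without Trsp-Ins1KO replicate 2, a repeat added after the data were seen, the medians were -0.33 in Trsp-Ins1KO against TrspFF and 1.02 in Trsp-RIPKO against Trsp-Ins1KO. The part of neighbouring tissue in the immediate early gene levels was not tested. Striatal markers, another neighbouring region, averaged -1.48 and -1.47 in Trsp-RIPKO, -1.63 and -1.56 in Trsp-Ins1KO, and -0.87 and -0.51 in TrspFF, an order unlike that of the 10 genes. All 7 had a lower mean in both knockouts than in TrspFF, whose arrays held the lowest levels of Fos and Fosb. Gpr6, a receptor of striatal projection neurons, fell in both, with levels of -2.69 and -2.70 in Trsp-RIPKO, -2.48 and -2.52 in Trsp-Ins1KO, and -1.90 and -1.94 in TrspFF. It differed from TrspFF by -0.78 in Trsp-RIPKO (SE 0.08, adjusted p = 0.0294, limma) and by -0.58 in Trsp-Ins1KO (SE 0.08, adjusted p = 0.0469). Adora2a, the adenosine receptor of those neurons, fell in Trsp-Ins1KO, with levels of -3.75 and -3.81 in Trsp-RIPKO, -4.38 and -4.49 in Trsp-Ins1KO, and -2.45 and -1.59 in TrspFF, a difference of -2.41 in Trsp-Ins1KO (SE 0.29, adjusted p = 0.0375). With only the 2 groups compared in the fit, 0 genes passed in either comparison with TrspFF. The part of striatal tissue in the levels of Fos and Fosb was not tested.

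**Figure D4:**
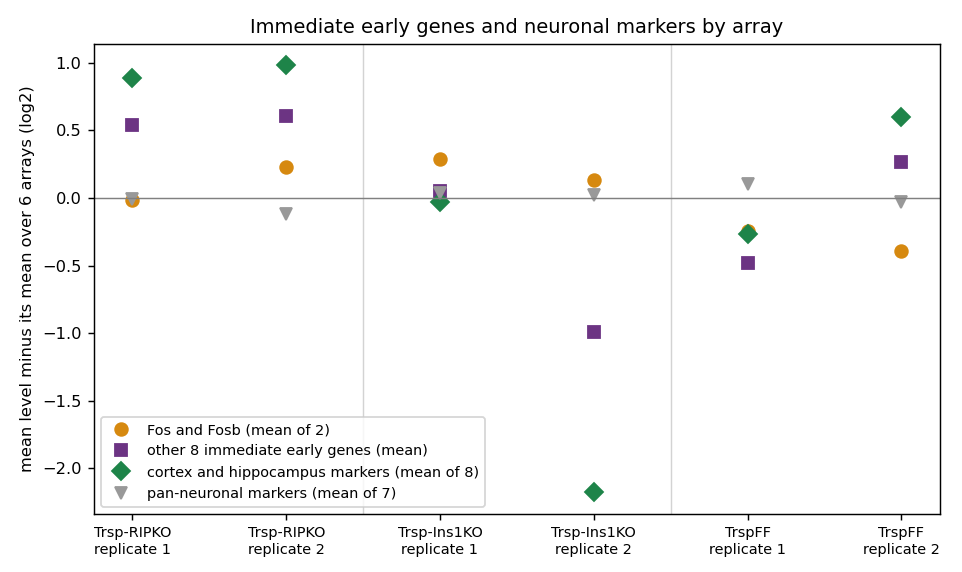
Mean level minus its own mean over the 6 arrays (vertical axis, log2) of Fos and Fosb (circles), the other 8 immediate early genes (squares), 8 markers of cortical and hippocampal excitatory neurons (diamonds) and 7 pan-neuronal markers (triangles), for each array of Trsp-RIPKO, Trsp-Ins1KO and TrspFF. Squares and diamonds are both lowest on Trsp-Ins1KO replicate 2 and highest on the Trsp-RIPKO arrays, circles are lowest on the TrspFF arrays, and the pan-neuronal markers, whose mean level lies between 3.50 and 3.72, stay near 0.

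Among genes with a usual symbol, those whose centred profile over the 6 arrays was nearest to the mean of the 10 were, by root mean square difference in log2, Ephx4 (0.048), Vxn (0.0563), Tmem178 (0.0846), Camk2a (0.0973), Dkk3 (0.104), Mlip (0.116), Zdhhc8 (0.132) and Myo5c (0.132). The median over all genes was 0.511, and a gene with the same level on all arrays would have 0.460. Of the 10 genes themselves, Junb (0.108) and Nr4a1 (0.123) were nearest to their own mean, and Fos (0.513) was farthest, with Arc (0.487) and Fosb (0.485) next. Arc has the shape of the mean on a larger scale, whereas Fos and Fosb have another shape. Camk2a, the alpha subunit of the calcium- and calmodulin-dependent kinase of forebrain excitatory neurons, had levels of 1.15 and 1.15 in Trsp-RIPKO, 0.65 and -0.27 in Trsp-Ins1KO, and 0.35 and 0.71 in TrspFF. These likenesses rest on 6 arrays and carry no test.

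Among relatives of the 10 genes, 7 of 10 listed were tested and 0 passed in any comparison. Their medians were 0.26 in Trsp-RIPKO against TrspFF, 0.04 in Trsp-Ins1KO against TrspFF and 0.20 in Trsp-RIPKO against Trsp-Ins1KO. In that order, 1, 1 and 1 of them had an unadjusted p under 0.05 (limma), beside 23.9%, 26.0% and 18.4% of all genes. Without Trsp-Ins1KO replicate 2 the medians of both comparisons with Trsp-Ins1KO were 0.24 against TrspFF and -0.01 for Trsp-RIPKO against Trsp-Ins1KO. Jund, a Jun protein that is present before stimulation, was like Fos higher on all 4 knockout arrays than on both TrspFF arrays. Its levels were 3.84 and 3.74 in Trsp-RIPKO, 3.88 and 4.03 in Trsp-Ins1KO, and 3.36 and 3.21 in TrspFF, with differences from TrspFF of 0.51 in Trsp-RIPKO (SE 0.11, adjusted p = 0.0897, limma) and 0.67 in Trsp-Ins1KO (SE 0.11, adjusted p = 0.061). Jun itself had levels of 2.13 and 1.55 in Trsp-RIPKO, 2.23 and 2.05 in Trsp-Ins1KO, and 2.13 and 1.92 in TrspFF, and its groups overlapped. Ier3 went the other way from Jund and was lower on all 4 knockout arrays. Its levels were -1.75 and -1.57 in Trsp-RIPKO, -1.64 and -1.84 in Trsp-Ins1KO, and -1.46 and -1.45 in TrspFF. It differed from TrspFF by -0.20 in Trsp-RIPKO (SE 0.12, adjusted p = 0.342, limma) and by -0.28 in Trsp-Ins1KO (SE 0.12, adjusted p = 0.21). Nr4a2, a relative of Nr4a1 known from dopamine neurons, differed by 0.37 between Trsp-RIPKO and Trsp-Ins1KO (SE 0.14, adjusted p = 0.271).

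Other activity-induced transcripts (24 of 25 listed were tested) had 0 calls in the 3 comparisons and medians of 0.19 in Trsp-RIPKO against TrspFF, -0.03 in Trsp-Ins1KO against TrspFF and 0.14 in Trsp-RIPKO against Trsp-Ins1KO. In that order, 5, 4 and 10 of them had an unadjusted p under 0.05 (limma), beside 23.9%, 26.0% and 18.4% of all genes. Per1, a clock gene that is also induced by CREB, had levels of 3.18 and 3.14 in Trsp-RIPKO, 1.80 and 2.21 in Trsp-Ins1KO, and 2.38 and 2.97 in TrspFF, and Trsp-RIPKO and Trsp-Ins1KO differed by 1.15 (SE 0.24, adjusted p = 0.263, limma). Arl4d, a small GTPase, and Klf10, a zinc finger factor, differed by 1.11 and 1.10 in the same direction (SE 0.18 and 0.29, adjusted p = 0.263 for each). Atf3, a factor induced by stress and injury, was lower in Trsp-RIPKO, with levels of -3.88 and -3.68 in Trsp-RIPKO, -3.10 and -3.08 in Trsp-Ins1KO, and -3.37 and -3.96 in TrspFF, a difference of -0.69 between the knockouts (SE 0.22, adjusted p = 0.263). Klf6, a zinc finger factor, was like Fos higher on all 4 knockout arrays, with 1.80 and 1.82 in Trsp-RIPKO, 2.13 and 1.99 in Trsp-Ins1KO, and 1.55 and 1.61 in TrspFF. Klf4, of the same list, was instead lower on all 4 knockout arrays. Its levels were -1.01 and -1.04 in Trsp-RIPKO, -0.85 and -0.95 in Trsp-Ins1KO, and -0.73 and -0.73 in TrspFF. It differed from TrspFF by -0.30 in Trsp-RIPKO (SE 0.08, adjusted p = 0.134, limma) and by -0.18 in Trsp-Ins1KO (SE 0.08, adjusted p = 0.252).

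Among regulators that restrain the early response, 9 of 10 were tested, with medians of 0.05 in Trsp-RIPKO against TrspFF, -0.08 in Trsp-Ins1KO against TrspFF and 0.20 in Trsp-RIPKO against Trsp-Ins1KO. In that order, 1, 2 and 3 of them had an unadjusted p under 0.05 (limma), beside 23.9%, 26.0% and 18.4% of all genes. In all, 1 passed the adjusted threshold in 1 comparison, where 1.82% of all genes passed. Dusp5, a phosphatase that inactivates the kinase ERK, was lower in Trsp-Ins1KO than in TrspFF. Its mean was -7.08 in Trsp-Ins1KO and -5.75 in TrspFF, with an adjusted p of 0.0421 (limma). Its probe passed the background call on 0 of the 2 arrays of Trsp-Ins1KO and on 1 of the 2 of TrspFF, so the size of the difference has no firm bound and no fold is given. With only Trsp-Ins1KO and TrspFF arrays in the fit, 0 genes passed in this comparison, Dusp5 included. Nab2, a corepressor that binds Egr proteins and is itself an Egr target, had levels of 0.92 and 1.05 in Trsp-RIPKO, 0.46 and 0.31 in Trsp-Ins1KO, and 0.46 and 0.61 in TrspFF. Both Trsp-RIPKO arrays lay above the 4 others, with differences of 0.44 from TrspFF (SE 0.11, adjusted p = 0.117) and 0.60 from Trsp-Ins1KO (SE 0.11, adjusted p = 0.263). Sik1, of the same list, went the other way between the knockouts, by -0.90 (SE 0.32, adjusted p = 0.264, limma). Its levels were -2.01 and -1.78 in Trsp-RIPKO, -0.94 and -1.05 in Trsp-Ins1KO, and -1.18 and -2.11 in TrspFF. Of the 9 regulators, 7 had a higher mean in Trsp-RIPKO than in Trsp-Ins1KO and 2 a lower one, beside 42.1% of all genes higher.

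Later effectors of activity (8 of 8 tested) had 0 calls (limma; 3, 3 and 4 at an unadjusted p under 0.05 in the order below, beside 23.9%, 26.0% and 18.4% of all genes), with medians of 0.08 in Trsp-RIPKO against TrspFF, 0.30 in Trsp-Ins1KO against TrspFF and -0.14 in Trsp-RIPKO against Trsp-Ins1KO. Nptx2, a pentraxin that gathers AMPA receptors at synapses, had levels of -1.28 and -1.18 in Trsp-RIPKO, -1.32 and -1.32 in Trsp-Ins1KO, and -1.77 and -1.71 in TrspFF. Like Fos and Fosb it was higher on all 4 knockout arrays than on both TrspFF arrays, by 0.51 in Trsp-RIPKO (SE 0.09, adjusted p = 0.0653, limma) and by 0.42 in Trsp-Ins1KO (SE 0.09, adjusted p = 0.0835). Bdnf, the neurotrophin, had levels of -0.59 and -0.53 in Trsp-RIPKO, -0.96 and -1.09 in Trsp-Ins1KO, and -1.26 and -0.84 in TrspFF, with the Trsp-RIPKO arrays highest. Vgf, a secreted peptide precursor of neuroendocrine neurons, had levels of 4.77 and 4.67 in Trsp-RIPKO, 4.98 and 5.15 in Trsp-Ins1KO, and 4.58 and 4.51 in TrspFF, with the Trsp-Ins1KO arrays highest.

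Of 31 genes of the pathway upstream (CREB and its coactivators, serum response factor and its partners, Mef2 factors, calcium-dependent kinases, the ERK cascade, calcineurin, and NMDA receptor and calcium channel subunits), 0 passed in any comparison (limma; 7, 7 and 4 at an unadjusted p under 0.05 in the order below, beside 23.9%, 26.0% and 18.4% of all genes). Their medians were 0.02 in Trsp-RIPKO against TrspFF, -0.12 in Trsp-Ins1KO against TrspFF and 0.17 in Trsp-RIPKO against Trsp-Ins1KO. Mef2c, a factor abundant in cortical excitatory neurons, had levels of -1.43 and -1.12 in Trsp-RIPKO, -2.60 and -3.13 in Trsp-Ins1KO, and -2.72 and -1.64 in TrspFF, a difference of 1.59 between the knockouts (SE 0.40, adjusted p = 0.263, limma). Mef2a, its relative, was lower on all 4 knockout arrays, at -1.38 and -1.44 in Trsp-RIPKO and -1.03 and -1.11 in Trsp-Ins1KO, against -0.16 and -0.57 in TrspFF, with a difference of -1.04 in Trsp-RIPKO (SE 0.15, adjusted p = 0.0546). Srf, which binds serum response elements, differed from TrspFF by 0.29 in Trsp-RIPKO (SE 0.09, adjusted p = 0.149) and by 0.05 in Trsp-Ins1KO.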

How the data were processed

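Hypothalamic RNA of 3 genotypes was measured on 6 Cy3 arrays. Per the file headers, Agilent Feature Extraction 10.7.3.1 produced the scanner files, whose processed signal is an intensity after background subtraction, and the array annotation follows build mm9. The authors deposited a table of log2 values for the same probes, centred on the probe's median over the arrays; its scaling is not stated in any source used here, and it served as an alternative.

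From 43020 spots that are not controls, flagged spots were left out and those of a probe averaged (39429 probes, of which 118 had no usable spot on some array and were left out). The level is log2 of the processed signal minus that of the array's 75th percentile. A probe was kept where some group had it well above background on both its arrays (28064 probes); probes were named through transcript accessions and a RefSeq gene table of build GRCm38.p6 (26055 of all probes, 66.1%), and the brightest stood for its gene. This left 22862 genes, including unnamed probes under their accession. The comparisons used R 4.3.3 and limma 3.58.1 (lmFit with all 6 arrays, eBayes, Benjamini-Hochberg over all genes at 0.05), with 4.87 degrees of freedom and a median SE of 0.127 log2. The method was tested on simulated data. The number of arrays limits the precision.

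The 10 genes and all gene lists were chosen with earlier results of these data known. Some list members are counted but are not reported here by name. Beside the 10 genes, the text names list members that passed, or where none did at most 4 by smallest p, and the 8 genes with the nearest profile; Jun, Klf6, Neurod6 and the markers used to describe the arrays were named after their values were seen where that rule does not reach them. Alternatives were normexp background correction (offset 50, on median spot signals, since a mean signal was not used here), quantile and median scaling, the deposited table (its knockout columns named by the scanner files they match), 2 other filters, other probe rules, eBayes with trend and robust, only 2 groups in the fit, the replicate number as a block, and leaving out each array in turn (for the list medians this was added after the data were seen), where the array left alone in its group is assumed to vary like the others. Slide could not be a term, since TrspFF has a slide of its own.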

Additional observations from a re-analysis of the deposited data

How the results depend on the processing

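In every setting tried except eBayes with trend and robust, 0 of the 10 genes passed the threshold in all 3 comparisons; with trend and robust, 1 passed in Trsp-Ins1KO against TrspFF (Fos, 0.54, adjusted p = 0.0496, limma). The sign of each difference of Trsp-RIPKO from TrspFF held in all settings, where the deposited table's knockout columns were named by the scanner files they match; under the table's own names these values belong to Trsp-Ins1KO. Leaving out each array in turn, the median over the 10 genes ranged from -0.55 to 0.45 in Trsp-Ins1KO against TrspFF, from 0.33 to 1.25 in Trsp-RIPKO against Trsp-Ins1KO and from 0.30 to 0.75 in Trsp-RIPKO against TrspFF, with a spread between replicates of 0.43 (SD). In Trsp-Ins1KO against TrspFF the same ranges crossed 0 for Junb (-0.58 to 0.39), Egr1 (-0.34 to 0.078), Egr2 (-1.60 to 0.011), Npas4 (-0.20 to 0.62), Arc (-1.15 to 0.52) and Nr4a1 (-0.52 to 0.55), as did Fosb between the knockouts (-0.084 to 0.18). Among settings on all arrays, Junb became 0.017 with quantile normalization, and Nr4a1 became -0.077 with quantile normalization and -0.077 with normexp in Trsp-Ins1KO against TrspFF; the cause was not tested. The remaining 326 values of single genes and 65 counts and medians kept their side.

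Counts over all genes moved more. With trend and robust 192 were higher and 592 lower in Trsp-RIPKO against TrspFF, in place of 22 and 357. Without a filter on dim probes 0 passed there, and 8 higher and 17 lower in Trsp-Ins1KO against TrspFF in place of 55 and 361. With only the 2 groups compared 0 passed in either comparison with TrspFF, and 163 higher and 156 lower in Trsp-RIPKO against Trsp-Ins1KO, in place of 0 and 4. Median scaling moved the median of all genes in Trsp-RIPKO against TrspFF from -0.01 to 0.09 and gave 16 higher and 208 lower.

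Replicate numbers did not pair the samples: deviations of same-numbered arrays correlated at -0.03 (Trsp-RIPKO and TrspFF), 0.09 (Trsp-Ins1KO and TrspFF) and -0.02 (the knockouts). With the replicate block 0 genes passed in each comparison and 0 of the 10, with medians of 0.55, -0.11 and 0.79.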
